A study of Mus musculus with 5 samples.

Results

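The cell cycle and DNA replication genes described here are 46 protein-coding genes of the mouse, chosen by symbol from the known machinery of DNA synthesis and mitosis by a rule that uses no measured value, though with earlier results of these data known. All 46 were among the 19198 genes of the deposited small intestine count table. They were read in 3 roles: 5 G1 to S regulators (Ccnd1, Ccnd2, Ccne1, Ccne2 and E2f1), 18 replication genes and 23 mitosis genes.

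A dividing cell passes from the G1 phase into the S phase when D-type and E-type cyclins, with their kinases, release the E2F transcription factors from the retinoblastoma proteins. E2F factors then switch on the genes that copy DNA: the MCM helicase, its loaders, the polymerases and the enzymes that make nucleotides. A later wave of genes, transcribed mainly in G2 and mitosis, encodes the kinases, motors and checkpoint proteins that separate the chromosomes. In the small intestine most dividing cells are the transit amplifying cells of the crypt, which feed the villi with new epithelium every few days, and germinal centers of Peyer's patches hold dividing B cells.

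The libraries came from small intestine, called whole in the study's design text, of 2 Cre-positive mice (Math1Cre*PR mAchR4 fl/fl) and 3 Cre-negative littermates (mAchR4 fl/fl); the labels do not say which stretch each library sampled. In Math1Cre*PR mice a recombinase that acts when RU486 binds its progesterone receptor part is made in cells that express Math1 (Atoh1), the transcription factor of the secretory lineage; mAchR4 is the muscarinic acetylcholine receptor encoded by Chrm4. Every mouse of both groups carried the floxed receptor gene and was gavaged with RU486 at 10 mg/kg once a day over 4 days. Mice with the Cre and an unfloxed receptor gene were not analysed here, so effects of the active Cre and of receptor deletion cannot be told apart. RNA was sequenced as total RNA after depletion of ribosomal RNA, with 1 library per mouse, named by group and mouse number, and between 4681119 and 6618204 estimated counts per library. Values of a group are given in the order of its mouse numbers.

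Chrm4 itself had 13 and 5 counts in the Cre-positive mice, against 4, 20 and 4 counts in the Cre-negative mice, too few for a check of the deletion in whole tissue. Levels are in CPM, counts in 1000000 after TMM scaling. Of the enterocyte genes, Anpep was at 2927 CPM or more in every library, but Fabp1 had 0 counts in Cre-positive 1. Lct, the lactase gene, had 3.48 and 632 CPM in the Cre-positive mice, against 259, 15.8 and 881 CPM in the Cre-negative mice. Cre-positive 1 stood apart from the other 4 libraries in lymphocyte markers and Cre-negative 1 in smooth muscle markers.

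No cell cycle gene of the 46 was called between the genotypes, and mice of the same genotype differed widely. Mitosis genes moved together from mouse to mouse: all 23 were lowest in Cre-negative 1, and 21 of 23 were highest in Cre-positive 1. Their summed level spanned 4.74-fold over the 5 mice, against 1.87-fold for the replication genes. The largest fitted differences were those of Ccnb1, the cyclin that drives entry into mitosis, Top2a, the topoisomerase that untangles replicated DNA, and Mcm5, a subunit of the replicative helicase, and none passed the test.

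Counts were tested across all genes with edgeR's quasi-likelihood test, and 44 of the 46 genes passed the filter on low counts; Ccne1 and E2f1 did not. Of the 44, 0 were called higher and 0 lower at a Benjamini-Hochberg adjusted p under 0.05, where the share called over all 14352 genes tested was 0% in each direction. At an unadjusted p under 0.05 there were also 0 members in either direction, against 1.6% of all genes higher and 1.78% lower. DESeq2 called 0 members (0.132% of all genes tested) and limma-voom 0, and the lowest adjusted p of any member was 0.977 with edgeR and 0.978 with limma-voom. Positive fold changes, higher in Cre-positive, were found for 40 of the 44 members, against 45.5% of all genes. That count rested on single mice: without Cre-positive 1, 7 of 18 replication genes and 9 of 23 mitosis genes had a positive fold change, where the counts with all mice were 14 and 23. Without Cre-negative 1 the mitosis count was 16 of 23. Of the 44 members, 0 had groups that did not overlap, against 7.89% of all genes tested that were higher without overlap in the Cre-positive mice and 10.2% that were lower.

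**Figure D1:**
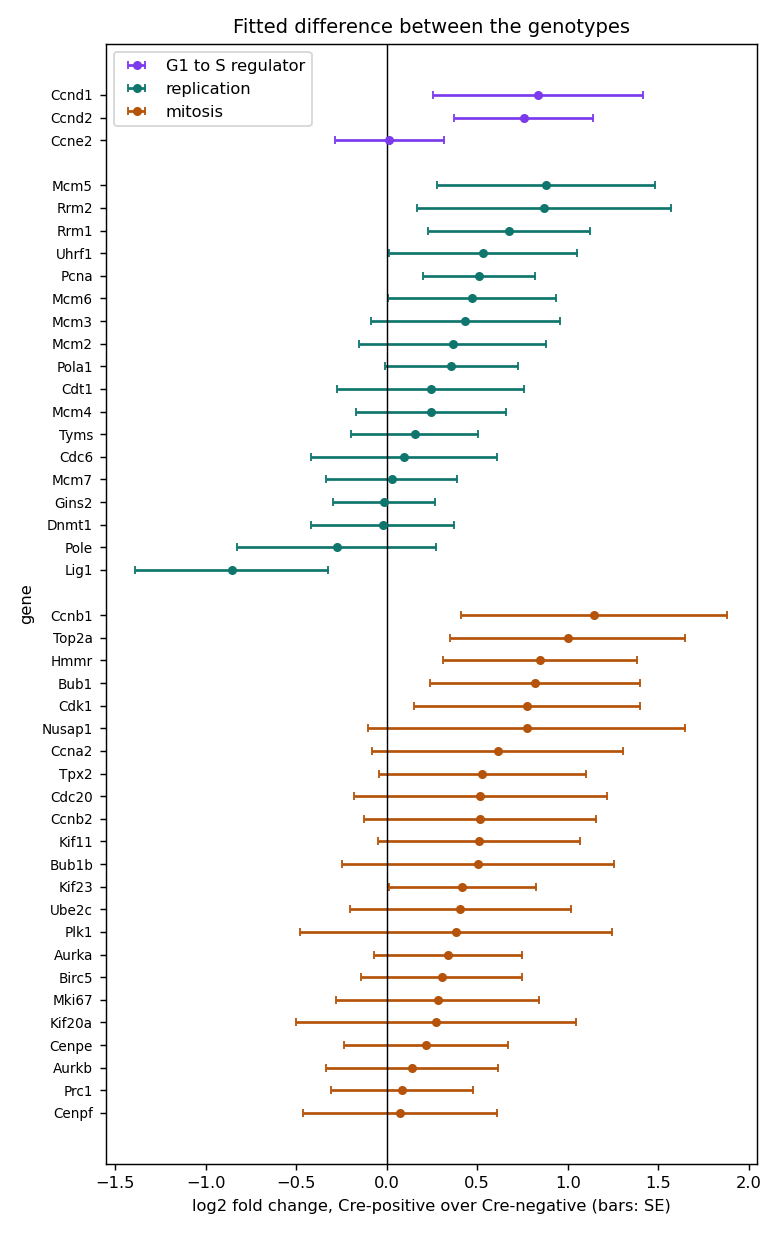
Fitted log2 fold changes (x axis, Cre-positive relative to Cre-negative; bars are standard errors from edgeR) for the 44 genes tested, grouped by role. The values run from -0.86 for Lig1 to 1.14 for Ccnb1, with 40 of 44 above 0 and none past the test.

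The median log2 fold change was 0.50 over the 23 mitosis genes, 0.30 over the 18 replication genes and 0.76 over the 3 G1 to S regulators tested, against -0.04 over all genes tested. Without Cre-positive 1 the medians were -0.05, -0.05 and 0.37. Leaving out Cre-negative 3 gave 1.16, 0.65 and 0.98, leaving out Cre-positive 2 gave 0.94, 0.61 and 1.1, and leaving out Cre-negative 1 gave 0.17, 0.15 and 0.43. The genes behind 2 of these medians changed with the filter. Without Cre-positive 2, Ccne1 passed it and the G1 to S median was over 4 genes. Without Cre-negative 3, Plk1 did not pass and the mitosis median was over 22 genes. Standard errors of single genes ran from 0.28 to 0.88 on the log2 scale.

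Summed over members, the 23 mitosis genes together reached 914 and 414 CPM in the Cre-positive mice, against 193, 473 and 721 CPM in the Cre-negative mice. The exact Poisson 95% intervals, which cover counting error only, were 888 to 940 and 398 to 430 in the Cre-positive libraries, against 180 to 206, 455 to 492 and 700 to 743 in the Cre-negative libraries. Cre-positive 1 lay above every other mouse and Cre-negative 1 below, while Cre-positive 2 lay between Cre-negative 1 and Cre-negative 2. The mean was 664 ± 354 in the Cre-positive mice (SD, n = 2) and 462 ± 264 in the Cre-negative mice (SD, n = 3). Beside these sums, B and germinal center cell markers summed to 398 CPM in Cre-positive 1 and to at most 41.9 CPM in any other mouse, and smooth muscle markers to 2434 CPM in Cre-negative 1 and to at most 1157 CPM in any other mouse; their part in the levels of the cell cycle genes was not tested. In whole tissue, fewer dividing cells and less of these transcripts per dividing cell cannot be told apart.

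The 18 replication genes summed to 246 and 172 CPM in the Cre-positive mice, against 131, 165 and 221 CPM in the Cre-negative mice, with means of 209 ± 52.1 (SD, n = 2) and 172 ± 45.3 (SD, n = 3). The mice stood in nearly the same order as for the mitosis genes, with Cre-positive 2 just above Cre-negative 2. The 5 G1 to S regulators, to which Ccnd2 gave most, summed to 408 and 256 CPM in the Cre-positive mice, against 120, 203 and 274 CPM in the Cre-negative mice. Within the Cre-negative littermates alone the highest sum was 3.74 times the lowest for the mitosis genes, 1.68 times for the replication genes and 2.29 times for the G1 to S regulators.

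The ratio of the replication sum to the mitosis sum, which does not depend on library scaling, was 0.269 and 0.416 in the Cre-positive mice, against 0.682, 0.348 and 0.306 in the Cre-negative mice. The mice with a higher mitosis sum, which is also the denominator, had the lower ratio, and Cre-negative 1 had the highest. With the 9 members whose deposited counts were not whole in some library left out, a choice made after seeing the data, the ratios were 0.261 and 0.331 in the Cre-positive mice, against 0.482, 0.311 and 0.281 in the Cre-negative mice. The direction stayed, and the gap of Cre-negative 1 to the other mice was smaller.

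**Figure D2:**
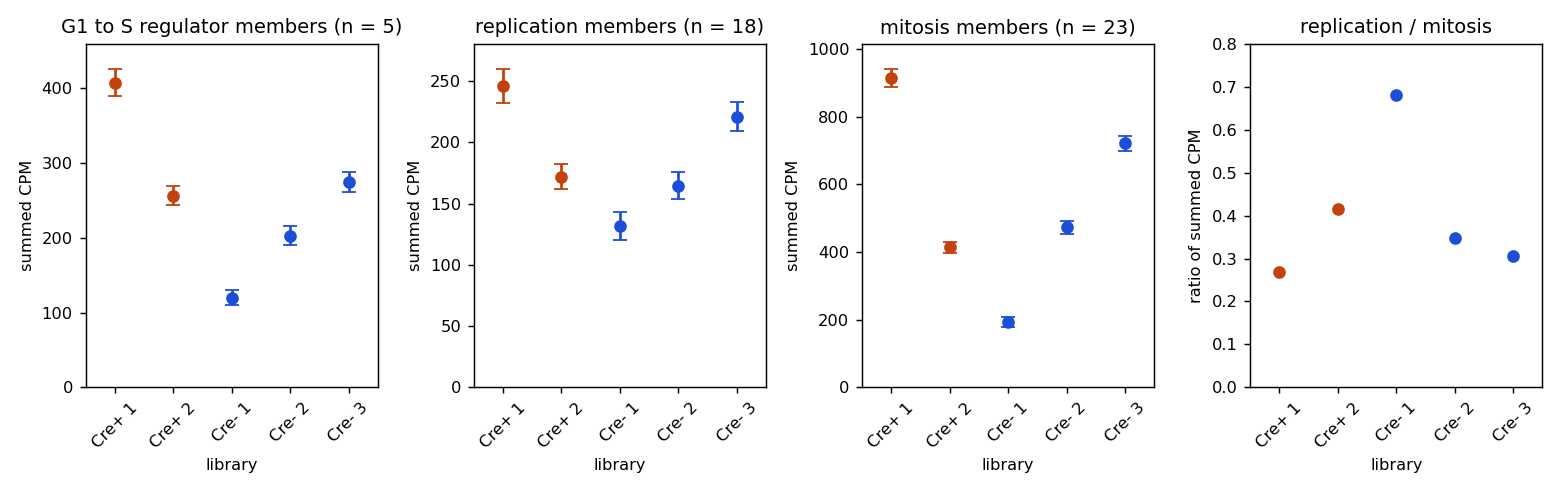
Summed CPM of the 5 G1 to S regulators, 18 replication genes and 23 mitosis genes, and the ratio of replication to mitosis sums, in each library (Cre+ is Cre-positive, Cre- is Cre-negative; 1 point per mouse). Bars are exact Poisson 95% intervals; the mitosis sums run from 193 in Cre-negative 1 to 914 in Cre-positive 1, and the ratio from 0.269 to 0.682.

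The order of the mice was shared by most mitosis genes, as a description of these 5 libraries. Of all genes tested, 25.3% were highest in Cre-positive 1 and 21.7% lowest in Cre-negative 1, and 9.64% were both. Of the mitosis genes tested, 21 of 23 were both; of the replication genes, 7 of 18; of the G1 to S regulators, Ccnd1 and Ccnd2 of 3 tested. Plk1 and Prc1 were the mitosis genes that were highest in Cre-negative 3 and not in Cre-positive 1. With Cre-positive 1 left out, 21 of 23 mitosis genes and 12 of 18 replication genes were highest in Cre-negative 3, against 25% of all genes. With Cre-negative 1 left out, the lowest mouse was Cre-positive 2 for 13 mitosis genes and Cre-negative 2 for 10. Cre-positive 2 lay within the range of the Cre-negative mice for 23 of 23 mitosis genes and 13 of 18 replication genes, against 57.4% of all genes tested.

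**Figure D3:**
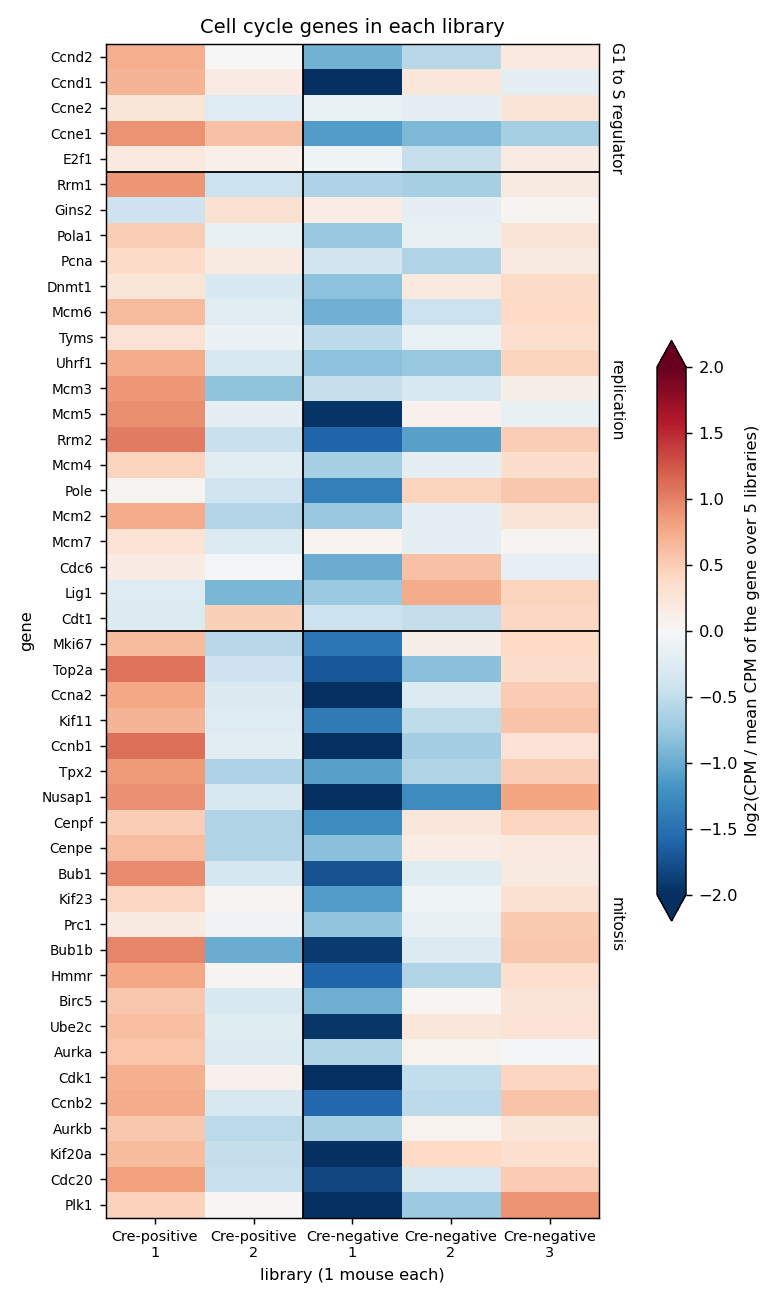
Level of each of the 46 genes in each library, as log2 of its CPM over its own mean CPM of the 5 libraries (color; values past 2 in either direction take the end color), with the roles from top to bottom and Cre-positive libraries left of the line. Mitosis genes are mostly red in Cre-positive 1 and Cre-negative 3 and blue in Cre-negative 1, where all 23 were lowest, while Gins2, Mcm7 and Ccne2 vary little.

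Among the G1 to S regulators the D-type cyclins were the abundant ones. Ccnd2, cyclin D2 (chromosome 6, 127125162 to 127152193, minus strand, GRCm38), had 297 and 178 CPM in the Cre-positive mice, against 93.0, 123 and 206 CPM in the Cre-negative mice. Its groups overlapped only through Cre-positive 2 and Cre-negative 3, and its log2 fold change was 0.76 ± 0.38 (SE; edgeR adjusted p = 0.977), with the lowest unadjusted p of the 44 members tested, 0.0884. Ccnd1, cyclin D1 (chromosome 7, 144929931 to 144939925, minus strand), had 91.3 and 64.5 CPM in the Cre-positive mice, against 13.2, 67.1 and 50.3 CPM in the Cre-negative mice. Cre-negative 1 was the low mouse, and the log2 fold change of 0.83 ± 0.58 (adjusted p = 0.977) was 0.43 without it. The deposited counts of Ccnd1 were not whole in 5 libraries.

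The E-type cyclins, which act with Cdk2 at the start of S phase, were lower. Ccne1 had 10 counts in each Cre-positive library, or 1.94 and 1.55 CPM, against 2, 3 and 4 counts in the Cre-negative libraries, or 0.479, 0.556 and 0.652 CPM. Its groups did not overlap, but it was too scarce for the filter. In the same fit without a filter its log2 fold change was 1.61 ± 0.67, with an unadjusted p of 0.0428 and an adjusted p of 0.982 from edgeR. Ccne2 averaged 13.5 ± 3.31 CPM in the Cre-positive mice (SD, n = 2) and 13.3 ± 2.27 CPM in the Cre-negative mice (SD, n = 3). E2f1, a transcription factor that activates S phase genes, had 6 and 7 counts in the Cre-positive mice, against 4, 4 and 7 counts in the Cre-negative mice. At this depth no difference in E2f1 was detectable.

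The MCM helicase, a ring of 6 related proteins that opens the double helix at each fork, is encoded by Mcm2 to Mcm7, which together had 62.5 and 31.4 CPM in the Cre-positive mice, against 24.4, 33.9 and 46.3 CPM in the Cre-negative mice. Mcm2 (chromosome 6, 88883474 to 88898780, minus strand) had 8.13 and 3.26 CPM in the Cre-positive mice, against 2.88, 4.26 and 5.87 CPM in the Cre-negative mice. Mcm5 had 10.6 and 4.97 CPM in the Cre-positive mice, against 1.44, 5.93 and 5.05 CPM in the Cre-negative mice. The high mouse was Cre-positive 1 for both genes and the low mouse Cre-negative 1, where Mcm5 had 6 counts. Mcm6 had 15.9 and 8.86 CPM in the Cre-positive mice, against 5.27, 7.60 and 13.5 CPM in the Cre-negative mice. The log2 fold changes were 0.36 ± 0.52 for Mcm2, 0.88 ± 0.60 for Mcm5 and 0.47 ± 0.46 for Mcm6 (SE; edgeR adjusted p = 0.977 each), and that of Mcm2 was -0.39 without Cre-positive 1. Mcm7 stood apart from the rest of the ring in how little it varied, at 5.54 ± 1.46 CPM in the Cre-positive mice (SD, n = 2) and 5.42 ± 0.525 CPM in the Cre-negative mice (SD, n = 3). Its exons overlap Ap4m1 and Cops6 on the opposite strand, and it is unknown here whether counting used the strand.

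Of the proteins that load and start the helicase, Cdc6, which places MCM rings on origins, had 4.26 and 3.73 CPM in the Cre-positive mice, against 1.92, 5.74 and 3.42 CPM in the Cre-negative mice. Both Cre-positive mice lay within the Cre-negative range. Its partner Cdt1 averaged 2.85 ± 1.02 CPM in the Cre-positive mice and 2.40 ± 0.888 CPM in the Cre-negative mice. Gins2, a subunit of the complex that activates the helicase, did not follow the other members: it had 25.9 and 42.9 CPM in the Cre-positive mice, against 38.6, 30.2 and 35.8 CPM in the Cre-negative mice. Cre-positive 1, the highest mouse for most members, was the lowest for Gins2. Its deposited counts were not whole in 5 libraries, and its exons overlap Gse1 on the opposite strand, so its value is uncertain.

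At the fork itself, Pcna, the sliding clamp that holds polymerases on DNA (chromosome 2, 132249162 to 132253314, minus strand), had 21.7 and 18.8 CPM in the Cre-positive mice, against 12.7, 10.9 and 18.9 CPM in the Cre-negative mice. Cre-positive 2 and Cre-negative 3 differed by less than 1 CPM, and the log2 fold change was 0.51 ± 0.31 (SE; edgeR adjusted p = 0.977). Pola1, the catalytic subunit of the priming polymerase, averaged 19.6 ± 6.2 CPM in the Cre-positive mice and 15.2 ± 5.07 CPM in the Cre-negative mice, and Pole, of the leading strand polymerase, 7.19 ± 1.60 and 8.59 ± 4.76 CPM (Cre-positive and Cre-negative). Lig1, the ligase that joins Okazaki fragments, had the lowest fold change of the members, with 3.68 and 2.33 CPM in the Cre-positive mice, against 2.64, 7.41 and 6.03 CPM in the Cre-negative mice. Cre-negative 1 lay between the Cre-positive mice, and the log2 fold change of -0.86 ± 0.53 did not pass the test (adjusted p = 0.977).

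Enzymes that supply DNA building blocks varied with the mouse. Rrm1 and Rrm2 encode the large and the small subunit of ribonucleotide reductase. Rrm1 had 38.5 and 15.5 CPM in the Cre-positive mice, against 13.7, 13.2 and 23.6 CPM in the Cre-negative mice. Rrm2, the subunit that is made mainly in S phase, had 10.5 and 3.73 CPM in the Cre-positive mice, against 1.68, 2.41 and 7.17 CPM in the Cre-negative mice. In both genes Cre-positive 2 lay inside the range of the Cre-negative mice, and the log2 fold changes of 0.67 ± 0.45 and 0.87 ± 0.70 (SE; edgeR adjusted p = 0.977 each) were -0.09 and -0.02 without Cre-positive 1. Tyms, thymidylate synthase, had 12.2 and 9.17 CPM in the Cre-positive mice, against 6.95, 9.08 and 12.5 CPM in the Cre-negative mice. Uhrf1, which brings the methyltransferase to newly copied DNA, had 12 and 5.75 CPM in the Cre-positive mice, against 4.07, 4.26 and 9.78 CPM in the Cre-negative mice. Dnmt1, that methyltransferase, averaged 16.8 ± 4.42 CPM in the Cre-positive mice and 17.0 ± 6.52 CPM in the Cre-negative mice.

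Among the mitosis genes Mki67, which encodes the Ki-67 protein of dividing cells (chromosome 7, 135689784 to 135716361, minus strand), had the most counts. It had 258 and 113 CPM in the Cre-positive mice, against 60.9, 179 and 218 CPM in the Cre-negative mice, or 1334 and 727 counts against 254, 965 and 1338 counts. Cre-positive 2 was the second lowest mouse, and the log2 fold change of 0.28 ± 0.56 (SE; edgeR adjusted p = 0.977) was -0.41 without Cre-positive 1 and -0.07 without Cre-negative 1. Top2a (chromosome 11, 98992943 to 99024189, minus strand) had 167 and 59.5 CPM in the Cre-positive mice, against 24.4, 44.3 and 101 CPM in the Cre-negative mice, with a log2 fold change of 1.0 ± 0.65 (adjusted p = 0.977). Without Cre-positive 1 that value was 0.10.

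Cdk1, the kinase of mitotic entry (chromosome 10, 69335146 to 69352938, minus strand), had 8.13 and 5.29 CPM in the Cre-positive mice, against 1.2, 3.52 and 6.68 CPM in the Cre-negative mice. Its partner Ccnb1, cyclin B1 (chromosome 13, 100778650 to 100786570, minus strand), had 44.1 and 17.6 CPM in the Cre-positive mice, against 3.35, 12.8 and 25.1 CPM in the Cre-negative mice. Cre-negative 3 lay above Cre-positive 2 in both genes and Cre-negative 1 was the low mouse, with 5 counts of Cdk1 and 14 of Ccnb1. Their log2 fold changes were 0.78 ± 0.62 and 1.14 ± 0.74 (SE; edgeR adjusted p = 0.977 each), and without Cre-positive 1 they were 0.46 and 0.36. The deposited counts of Ccnb1 were not whole in 4 libraries. Ccna2, cyclin A2, averaged 59.9 ± 30.0 CPM in the Cre-positive mice (SD, n = 2) and 38.9 ± 28.2 CPM in the Cre-negative mice (SD, n = 3), and Ccnb2 averaged 5.29 ± 2.64 and 3.59 ± 2.52 CPM (Cre-positive and Cre-negative).

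Checkpoint and spindle genes gave the same picture. Bub1, a kinase of the spindle checkpoint, had 27.9 and 11.3 CPM in the Cre-positive mice, against 4.31, 12.2 and 16.3 CPM in the Cre-negative mice. Hmmr, a spindle-associated protein, had 14.9 and 9.02 CPM in the Cre-positive mice, against 2.88, 5.74 and 10.9 CPM in the Cre-negative mice. Kif23, a motor of the central spindle in cell division, had 25.5 and 19.9 CPM in the Cre-positive mice, against 8.87, 18.2 and 23.6 CPM in the Cre-negative mice. For each of these the 2 groups overlapped, Cre-positive 1 was highest and Cre-negative 1 lowest. Their log2 fold changes were 0.82 ± 0.58, 0.85 ± 0.54 and 0.42 ± 0.41 (SE; edgeR adjusted p = 0.977 each).

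The other mitosis genes had log2 fold changes between 0.07 for Cenpf, a kinetochore protein, and 0.77 for Nusap1, which bundles spindle microtubules. They included the kinases Aurka, Aurkb and Plk1, the checkpoint gene Bub1b, the kinetochore motor Cenpe and the spindle motors Kif11 and Kif20a. Birc5, which works with Aurkb, and the spindle proteins Tpx2 and Prc1 were also among them. So were Ube2c and Cdc20, which serve the ubiquitin ligase that ends mitosis. The range between littermates was wide: the ratio of Cre-negative 3 to Cre-negative 1 had a median of 3.95 over the 23 mitosis genes, from 1.49 for Aurka to 9.83 for Nusap1, leaving aside Plk1, which had 21 counts in Cre-negative 3 and 1 count in Cre-negative 1. The same ratio had a median of 2.02 over the replication genes and 0.993 over all genes tested. Between the 2 Cre-positive mice, the ratio of Cre-positive 1 to Cre-positive 2 had a median of 2.09 over the mitosis genes, 1.58 over the replication genes and 1.01 over all genes tested.

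Per kilobase of annotated exon (GENCODE M21), the order of mean levels over the 5 mice began with Ccnd2 at 19.1, Mki67 at 16.5, Ccnd1 at 12.2, Ccna2 at 11.6 and Top2a at 8.79 CPM per kilobase. The ranges over mice overlapped, with 9.88 to 31.6 for Ccnd2, 6.05 to 25.7 for Mki67 and 2.58 to 19.9 for Ccna2. The lowest levels were those of E2f1 at 0.323 and Ccne1 at 0.389 CPM per kilobase. Ccnd2 was above Mki67 in 4 of 5 libraries, and both were above Top2a in 5 of 5.

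Proximal promoters are shown because known elements of cell cycle transcription stand in them; no relation between these letters and the levels was tested. Sequences are from RefSeq on GRCm38.p6, and 36 of the 46 genes matched the table, in which each promoter spans 250 bases before to 50 bases after a start site. Aurkb, Ccna2, Ccnd1, Ccnd2, Ccne2, Gins2, Kif20a, Mcm4, Pole and Tpx2 are not shown. Each line gives the stretch just upstream of the start site, 5′ to 3′ on the strand of the gene. Capitals mark the letters of 3 known elements on either strand: the cell cycle homology region (CHR, TTTGAA or TTTAAA), which binds the DREAM and MuvB complexes, the E2F element (TTTCGCGC or TTTGGCGC), and the CCAAT box bound by NF-Y.
Ccnb1 (mitosis, chr13:100786487-100786606, minus strand): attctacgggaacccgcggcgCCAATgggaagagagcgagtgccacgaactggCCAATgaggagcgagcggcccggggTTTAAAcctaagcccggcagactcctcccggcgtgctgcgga
Cdk1 (mitosis, chr10:69352913-69353052, minus strand): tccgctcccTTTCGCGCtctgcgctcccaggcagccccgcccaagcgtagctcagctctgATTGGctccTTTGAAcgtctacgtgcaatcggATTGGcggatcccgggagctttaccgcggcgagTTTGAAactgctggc
Cdc20 (mitosis, chr4:118437344-118437463, minus strand): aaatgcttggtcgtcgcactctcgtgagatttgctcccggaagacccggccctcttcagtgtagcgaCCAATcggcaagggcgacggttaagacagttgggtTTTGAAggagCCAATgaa
Ube2c (mitosis, chr2:164769809-164769928, plus strand): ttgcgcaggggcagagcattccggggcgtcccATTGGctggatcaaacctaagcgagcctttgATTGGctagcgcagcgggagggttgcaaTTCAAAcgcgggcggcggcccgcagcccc
Mcm6 (replication, chr1:128359706-128359825, minus strand): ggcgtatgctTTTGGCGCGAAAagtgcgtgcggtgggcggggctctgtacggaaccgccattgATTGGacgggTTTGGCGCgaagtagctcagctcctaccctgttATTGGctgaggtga
Mcm5 (replication, chr8:75109349-75109508, plus strand): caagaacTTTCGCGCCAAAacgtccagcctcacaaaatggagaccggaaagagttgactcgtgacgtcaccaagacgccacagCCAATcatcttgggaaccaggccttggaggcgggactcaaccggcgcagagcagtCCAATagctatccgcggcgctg
Pcna (replication, chr2:132253181-132253300, minus strand): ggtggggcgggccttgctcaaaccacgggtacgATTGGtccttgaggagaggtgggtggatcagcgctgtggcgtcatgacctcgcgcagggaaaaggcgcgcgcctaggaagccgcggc

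In the Ccnb1 promoter 2 CCAAT boxes stand before the CHR letters, which begin 42 bases before the start site, and in Cdc20 and Ube2c the CHR letters begin 18 and 29 bases before it. The stretches of Mcm6 and Mcm5 each hold a pair of overlapping E2F letters on opposite strands, beginning 110 and 106 bases before the start site in Mcm6 and 153 and 149 bases before it in Mcm5. Mcm6 holds a further E2F element 47 bases before the start site. Cdk1 is the 1 mitosis gene with E2F letters as well as CHR letters, and the stretch of Pcna holds a CCAAT box alone. Over whole promoters, CHR letters were found for 17 of 19 mitosis genes (89.5%) and 5 of 15 replication genes (33.3%), against 23.0% of the 9524 tested genes with a promoter in the table and 30.6% of all 27025 genes in it. E2F letters were found for 1 of 19 mitosis genes (5.26%) and 9 of 15 replication genes (60%), against 1.66% of the tested genes and 0.929% of all genes in the table. CCAAT boxes were found for 17 of 19 mitosis genes and 11 of 15 replication genes (73.3%), against 43.0% of the tested genes and 41.1% of all genes in the table. Letters of 2 different elements overlapped at 1 place, in Mcm7. A match is a description of these letters and not a measured site, and the data hold no measure of binding.

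**Figure D4:**
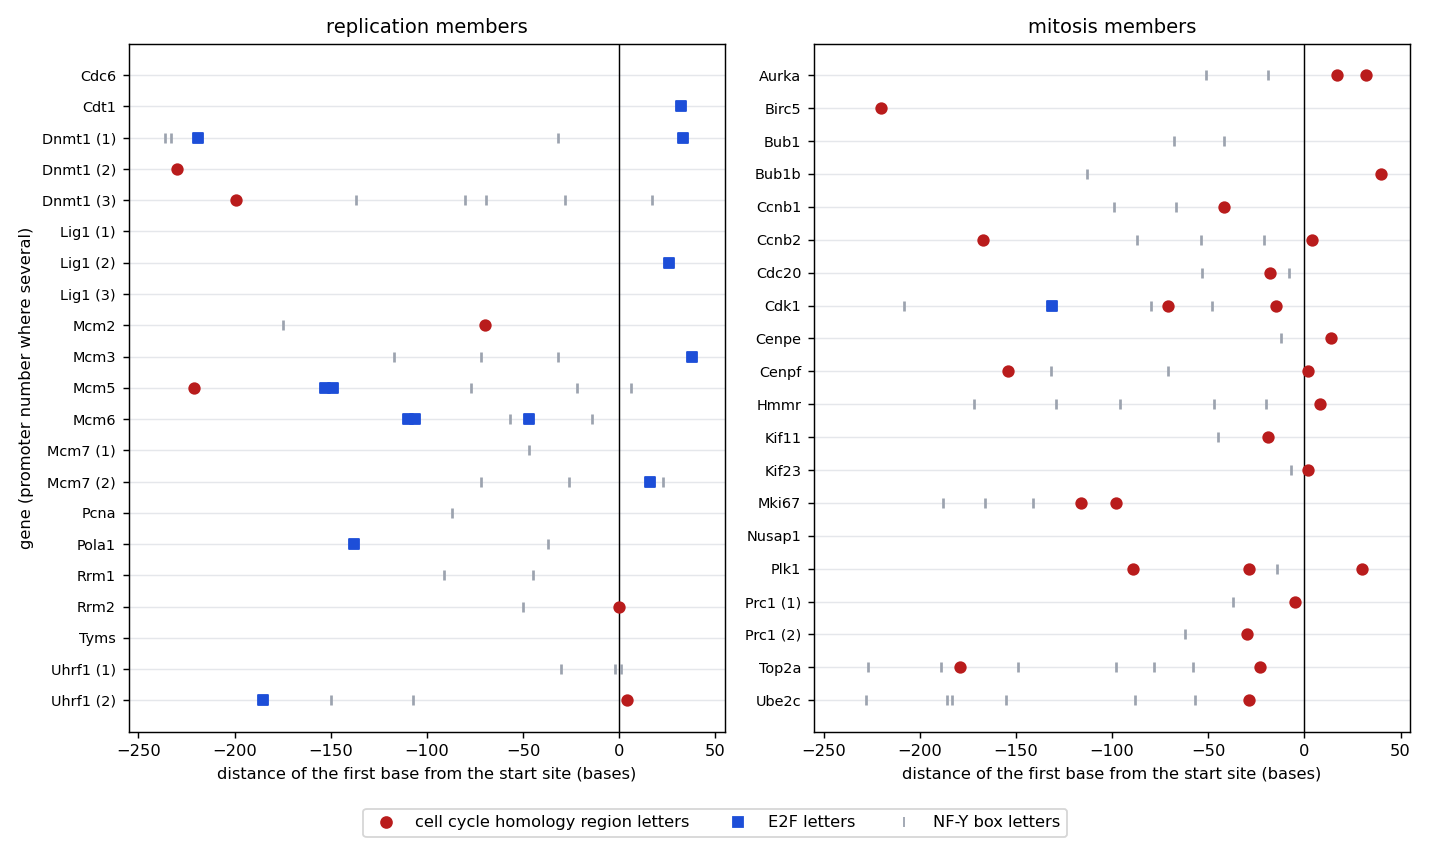
Position of the first base of each matched element (x axis, bases from the start site at 0) in the promoters of the 15 replication genes and 19 mitosis genes with a RefSeq promoter; a gene with several start sites has a line for each. CHR letters (red circles) stand in 17 of 19 mitosis genes, mostly near the start site, and E2F letters (blue squares) in 9 of 15 replication genes; gray ticks are CCAAT boxes.

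Other genes of the cell cycle, from lists of known machinery, were likewise not called. Of 40 other replication genes 35 were tested, with 0 called in either direction, 29 with a positive fold change and a median log2 fold change of 0.18. Rpa1, which coats single-stranded DNA, had 35.0 and 18.2 CPM in the Cre-positive mice, against 11.5, 15.8 and 18.9 CPM in the Cre-negative mice, and a log2 fold change of 0.78 ± 0.36. Prim2, of the primase, had 0.68 ± 0.40. Tk1, thymidine kinase, averaged 6.11 ± 1.25 CPM in the Cre-positive mice (SD, n = 2) and 9.55 ± 2.02 CPM in the Cre-negative mice (SD, n = 3), with -0.64 ± 0.34.

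Of 46 other mitosis genes present 43 were tested, with 0 called, 33 positive and a median of 0.35. In this list 39 of 43 genes were lowest in Cre-negative 1 and 27 of 43 highest in Cre-positive 1. Ect2, which starts the cleavage furrow, had 38.5 and 16.5 CPM in the Cre-positive mice, against 5.51, 8.52 and 23.8 CPM in the Cre-negative mice, and a log2 fold change of 1.1 ± 0.64. Spc25, of the kinetochore, had 0.85 ± 0.50, and the kinase gene Melk 0.95 ± 0.56 (SE; edgeR adjusted p = 0.977 for each gene named so far from these lists).

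Among 10 other G1 to S regulators 0 were called, 4 had a positive fold change and the median was -0.16. Cdk4 averaged 19.0 ± 4.64 CPM in the Cre-positive mice and 16.1 ± 7.11 CPM in the Cre-negative mice, Cdk6 43.9 ± 12.4 and 36.6 ± 4.07 CPM, and Ccnd3 4.44 ± 1.66 and 6.07 ± 3.46 CPM. Cdk2, the partner of the E-type cyclins, had a log2 fold change of -0.32 ± 0.27, the phosphatase gene Cdc25a -0.24 ± 0.21 and Myc -0.39 ± 0.47. Of 16 cell cycle inhibitors and repressors present 15 were tested, with 0 called, 8 positive and a median of 0.02. Cdkn1a, the p21 inhibitor, averaged 80.2 ± 16.3 CPM in the Cre-positive mice (SD, n = 2) and 84.8 ± 7.74 CPM in the Cre-negative mice (SD, n = 3). E2f5, a repressor of the E2F family, had 48.2 and 41.0 CPM in the Cre-positive mice, against 27.8, 28.7 and 28.5 CPM in the Cre-negative mice, so its groups did not overlap. Its log2 fold change of 0.65 ± 0.21 had an unadjusted p of 0.0167 and did not pass over all genes (edgeR adjusted p = 0.977). Of the other genes named from these cell cycle lists, Prim2, Spc25 and Melk were also higher without overlap in the Cre-positive mice. Tk1, Cdk2 and Cdc25a were lower without overlap. Over all genes tested, 7.89% were higher and 10.2% lower without overlap. E2f5 and these genes were named for the smallest unadjusted edgeR p of their lists, a choice that favors separate groups. Their number therefore cannot be read against those shares. Btg2, an antiproliferative gene, had 30.6 and 52.7 CPM in the Cre-positive mice, against 126, 47.6 and 53.9 CPM in the Cre-negative mice, where Cre-negative 1 was the high mouse. Rbl1, the retinoblastoma-like protein p107, had a log2 fold change of 0.28 ± 0.26.

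Markers of several cell types differed between the same mice. Crypt stem cell markers, 11 of 12 in the table, summed to 686 and 367 CPM in the Cre-positive mice, against 305, 309 and 561 CPM in the Cre-negative mice, with Slc12a2 and Olfm4 highest in mean over the 5 mice, an order that differed between mice. Cre-positive 1 and Cre-negative 3 were highest in this sum, but 5 of 11 markers were highest in Cre-positive 1. Smoc2, Axin2, Rnf43 and Znrf3 had negative fold changes and the other 7 positive ones, the largest that of Lgr5. Lgr5 had 13.4 and 7.15 CPM in the Cre-positive mice, against 3.35, 2.96 and 5.38 CPM in the Cre-negative mice. Its log2 fold change was 1.37 ± 0.43 (SE; edgeR unadjusted p = 0.015, adjusted p = 0.977). The groups did not overlap for Lgr5, where 7.89% of all genes tested were higher without overlap. Smoc2 was highest in Cre-negative 1, at 59.2 CPM. Another marker, Cdca7, is itself a replication list gene. B and germinal center cell markers, 15 of 16 in the table, summed to 398 and 25.8 CPM in the Cre-positive mice, against 41.9, 37.1 and 29.0 CPM in the Cre-negative mice, and 14 of 15 were highest in Cre-positive 1. The highest means over the 5 mice were those of Ighm, with 113 and 1.4 CPM in the Cre-positive mice, against 1.92, 2.41 and 0.977 CPM in the Cre-negative mice, and of Bcl6, the 1 marker not highest in Cre-positive 1. In Cre-positive 1 Bcl6 had 10.3 CPM, below Pou2af1 at 52.8 CPM. Cd79a and Fcrla had 0 counts in all 3 Cre-negative libraries, which allows up to 0.489 to 0.719 CPM in each, and Cd79a and Cd22 had 0 in Cre-positive 2 (up to 0.466 CPM). Outside Cre-positive 1 this sum came largely from Bcl6 and Rgs13, with 13.0 and 9.78 of the 29.0 CPM in Cre-negative 3. A link of these markers to the mitosis sums was not tested. T cell markers, 9 of 12 in the table, summed to 51.9 and 6.22 CPM in the Cre-positive mice, against 7.19, 5.93 and 5.21 CPM in the Cre-negative mice, and 9 of 9 were highest in Cre-positive 1. Cd8a and Cd4 had the highest means over the 5 mice, Cd4 through Cre-positive 1 alone, where it had 9.29 CPM. Cd5 and Cd28 had 0 counts in Cre-positive 2.

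Smooth muscle markers summed to 748 and 782 CPM in the Cre-positive mice, against 2434, 1157 and 789 CPM in the Cre-negative mice. Myh11 and Des led, and all 10 were highest in Cre-negative 1, the mouse in which all 23 mitosis genes were lowest. Differentiated enterocyte markers, led by Sis and Anpep, summed to 8752 and 19840 CPM in the Cre-positive mice, against 14503, 10549 and 19676 CPM in the Cre-negative mice, and 9 of 12 were lowest in Cre-positive 1. Cre-negative 3 was high in both the mitosis sum and this sum, while Cre-positive 1 was highest in the mitosis sum and lowest in this one. Goblet cell markers summed to 5080 and 2281 CPM in the Cre-positive mice, against 574, 994 and 1364 CPM in the Cre-negative mice, led by Muc2 and Fcgbp. Both Cre-positive sums lay above every Cre-negative sum, and 8 of 8 markers were highest in Cre-positive 1. Of the 7 tested, 7 had a positive fold change and 0 were called. Their median log2 fold change was 2.50, from 1.33 for Spink4 to 3.32 for Clca1. The unadjusted edgeR p was 0.0612 for Spink4 and 0.00196 for Clca1, and the adjusted p was 0.977 for both. Mitochondrially encoded genes took 17.8% and 18.8% of counts in the Cre-positive mice, against 23.8%, 21.2% and 17.3% in the Cre-negative mice.

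**Figure D5:**
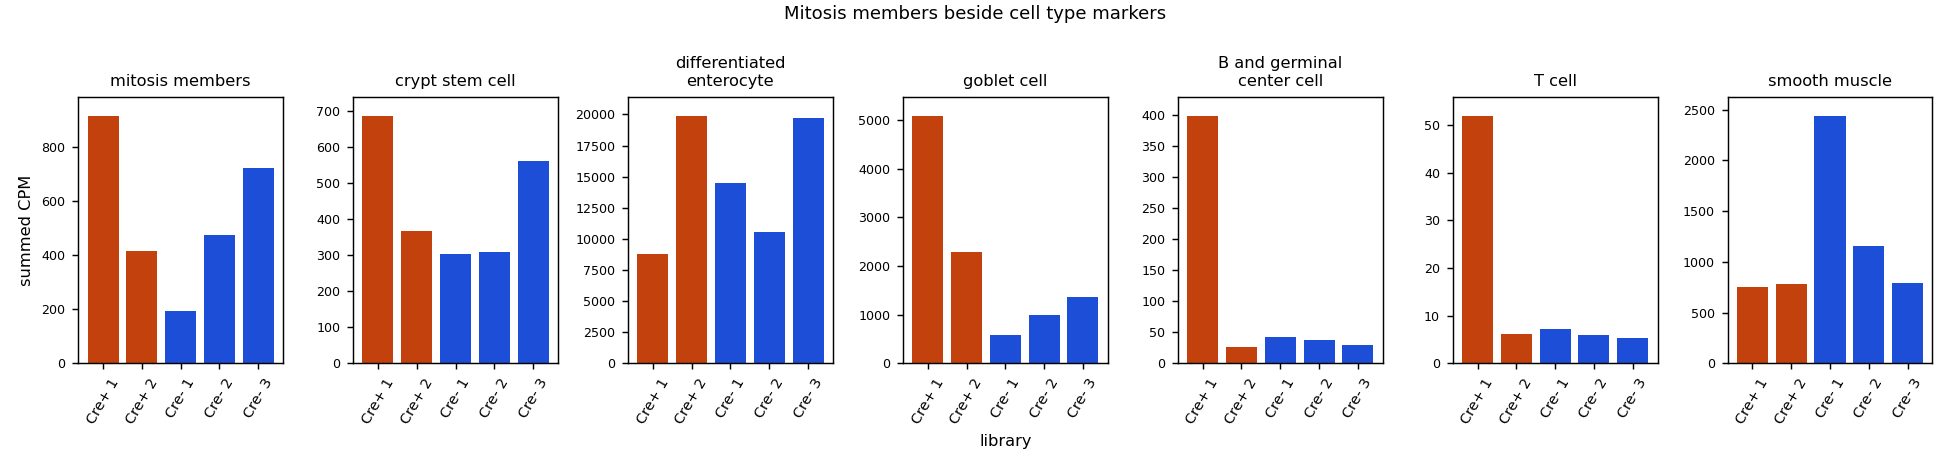
Summed CPM of the 23 mitosis genes and of 6 cell type marker lists in each library (bars from 0; each panel has its own scale; Cre+ is Cre-positive, Cre- is Cre-negative; 1 mouse per bar). Mitosis and crypt stem cell sums are highest in Cre-positive 1 and Cre-negative 3, though 5 of 11 crypt markers are highest in Cre-positive 1. B and T cell sums stand out in Cre-positive 1 alone, and smooth muscle in Cre-negative 1. Goblet cell sums are higher in both Cre-positive mice than in any Cre-negative mouse.

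For 9 members the deposited counts were not whole in at least 1 library: Ccnd1, Ccne2, Gins2, Ccna2 and Prc1 in 5 libraries, Pcna, Ccnb1 and Kif20a in 4 and Plk1 in 2. Exons of Ccna2, Prc1, Kif20a, Cdc20, Ube2c, Nusap1, Ccne2, Ccnd1, Ccnd2, Pole, Plk1 and Lig1 overlap a gene on the opposite strand, among them Exosc9, Rccd1, Cdc23, Elovl1, Tnnc2, Oip5, Ints8, LTO1, 9330179D12Rik, Gm15792, Gm44985 and Zswim9, so their levels are uncertain to that extent.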

How the data were processed

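Total RNA of small intestine from 5 mice was depleted of ribosomal RNA and sequenced, per the labels' protocols. The authors deposited 1 table of estimated counts per gene, with 1 column per mouse. Partek and mm10 are named in the submitters' processing notes; aligner, annotation and counting rule are not given there. Per library, 19.6% to 21.7% of values lay more than 0.005 from a whole number, and 0 rows named no gene. Estimated counts were rounded to whole numbers.

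All genes were fitted with edgeR 4.0.16 (R 4.3.3): TMM factors, the filterByExpr filter at 10 counts, a robust quasi-likelihood test on genotype with 3 residual degrees of freedom, Benjamini-Hochberg adjustment over 14352 genes and a threshold of 0.05. Fold changes have Cre-positive on top. A standard error is the absolute log2 fold change over the root of the F statistic. The filter needs enough counts in 2 libraries, so 1 group alone can bring a gene past it. The biological coefficient of variation was 33.1%. A check of the fit on simulated data covered the recovery of fold changes. Its genes were drawn independently, so it does not cover shifts shared by many genes of a mouse. The groups follow the genotype label; replicate numbers only name mice.

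The members and lists were chosen with earlier results of these data known. Values in every library were given for 15 preset members, one or more per role, and for the replication, mitosis and G1 to S members with the smallest unadjusted p (6, 6 and 2), and for those that failed the filter. Of the other lists the 3 genes with the smallest p and a few preset genes were named. Settings tried were scaling by RLE, by upper quartiles and by totals alone, limma 3.58.1 voom, DESeq2 1.42.0, fitting without robust estimation, no filter, a filter of 5 CPM in 2 libraries, a threshold of 0.1, and leaving out each mouse; counts of positive fold changes by setting, the order of mice without Cre-positive 1 or Cre-negative 1, the ratio over whole-valued members, the sign of every member by setting and the share of all genes without overlap by left-out mouse were added after seeing the data. Intervals cover counting error only, and a count of 0 allows up to 3 counts. Coordinates and exon lengths are from GENCODE M21 (GRCm38, the mm10 assembly) and promoters from RefSeq (GRCm38.p6).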

Additional observations from a re-analysis of the deposited data

How the results depend on the processing

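Called members numbered 0 higher and 0 lower under every setting that kept 2 or more mice in each group, including a threshold of 0.1. Over all 14352 genes tested, 19 were called with DESeq2 at 0.05, and 0 with the main fit and the other scalings. Without Cre-negative 3 the lowest edgeR adjusted p was 0.077 over all genes and 0.831 over the members. Leaving out 1 mouse at a time moved the median log2 fold change of the replication genes between -0.046 and 0.65, of the G1 to S regulators between 0.37 and 1.1, and of the mitosis genes between -0.049 and 1.16. Replication genes with a positive fold change then numbered 7 to 17 and mitosis genes 9 to 23. These medians and counts cover the genes that passed the filter in each fit. Members without overlap between groups, the untested Ccne1 and E2f1 included, numbered 1 to 36 higher and 0 to 4 lower. Over all genes tested the shares without overlap were 12.8% to 27.7% higher and 15.1% to 32.3% lower. Higher members numbered 36 without Cre-positive 2, where 27.7% of all genes tested were higher without overlap, and 20 without Cre-negative 3, where 16.6% were; lower ones numbered 4 without Cre-positive 1 (22.5% of all genes). With all mice 1 member was higher without overlap (Ccne1, which was not tested), against 7.89% of all genes tested. With RLE scaling 2 were and with the filter of 5 CPM 0, settings for which no share over all genes is given here. With no filter 5 G1 to S regulators were positive. The sign turned without 1 mouse in 29 of the 44 members tested, 24 of them without Cre-positive 1. Among the genes named by the rule it did so for Mki67 (-0.41 to 0.79), Mcm2 (-0.39 to 0.92), Rrm2 (-0.015 to 1.80), Tyms (-0.035 to 0.45), Cdc6 (-0.17 to 0.55), Uhrf1 (-0.057 to 1.12), Rrm1 (-0.088 to 1.22), Ccnd3 (-0.83 to 0.14), Cdk4 (-0.048 to 0.66), Cdk6 (-0.027 to 0.56), Myc (-0.92 to 0.075) and Cdkn1a (-0.26 to 0.15). With all 5 mice it turned in 4 members near 0: Gins2 and Dnmt1 with RLE scaling, DESeq2, no filter and the filter of 5 CPM, and Mcm7 and Ccne2 with limma-voom. With medians over members in place of sums, the ratio of replication to mitosis genes was 0.471 and 0.521 in Cre-positive 1 and 2, against 1.19, 0.673 and 0.585 in Cre-negative 1, 2 and 3. By medians both Cre-positive mice thus lay below every Cre-negative mouse, which by sums they did not. Cre-positive 2 then no longer followed the order of the mitosis sums. The causes were not tested. No scaling moved the median of all genes by over 0.1. No paired analysis was possible because the replicate numbers only name the mice. Members with few counts limit what 2 against 3 mice can show: Plk1 had 1 count in Cre-negative 1.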
